A study of Mus musculus with 8 samples.

Results

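Respiratory complex I genes were examined in the H3K27ac peak lists of mouse CD8+ T cells. The 42 nuclear genes described were taken by symbol from a fixed list of subunits and assembly factors, without regard to any measured value, out of 21627 protein-coding genes on chromosomes 1 to 19 and X. All 42 symbols were found in the RefSeq annotation of GRCm38.p6, whose coordinates are those of mm10. The cells were purified from lymph node and spleen of C57BL/6 mice and stimulated with antibodies to CD3 and CD28, in both treatments alike. They were kept for 48 h with EnPGC-1, a compound that the labels place among the PIPs (pyrrole-imidazole polyamides, synthetic molecules that bind DNA), or with DMSO, its vehicle. The 8 samples were 2 H3K27ac ChIP samples per treatment, 2 IgG samples, both after DMSO, and 1 input sample for each treatment, and no age, sex or pooling of animals is stated in them. The values below come from 2 peak lists, 1 per treatment. No spread between replicates could be measured, and no test between the treatments was made.

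Complex I is the NADH:ubiquinone oxidoreductase of the inner mitochondrial membrane. It passes electrons from NADH to ubiquinone and pumps protons, and it is the entry point for most electrons that drive ATP synthesis. The matrix arm holds the flavin and the iron-sulfur clusters, the membrane arm holds the proton pumps, and dedicated assembly factors join the modules without staying in the finished enzyme. The pump subunits at the core of the membrane arm are encoded in mitochondrial DNA and were not analysed here. In activated CD8+ T cells, respiration through this enzyme is known to support proliferation and long-term persistence, and the PGC-1 coactivators are known to promote transcription of respiratory chain genes. H3K27ac, acetylation of lysine 27 of histone H3, is typical of promoters and enhancers in use.

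More complex I genes carried an H3K27ac interval at a gene end after EnPGC-1 than after DMSO, but the EnPGC-1 peak set was also much longer. Within 1 kb of either gene end, an interval was listed for 21 of the 42 genes (50%, exact 95% binomial interval 34.2 to 65.8) in the DMSO peak set and for 37 (88.1%, 74.4 to 96.0) in the EnPGC-1 peak set. Of all protein-coding genes, 41.6% had such an interval in the DMSO peak set and 72.8% in the EnPGC-1 peak set. The binomial intervals cover counting error only. The genes divided into 20 marked in both lists, 17 in the EnPGC-1 peak set alone, 1 in the DMSO peak set alone and 4 in neither. The corresponding shares of all genes were 39.4%, 33.4%, 2.19% and 25%. Of 21 complex I genes that the DMSO peak set left unmarked, 17 were marked in the EnPGC-1 peak set (81.0%, 58.1 to 94.6), beside 57.2% of all such genes. When the EnPGC-1 peak set was reduced to its highest-scoring intervals, as many as the DMSO peak set holds, the 2 lists marked 21 complex I genes each. Over all 21627 genes the DMSO peak set marked 8996 and the reduced EnPGC-1 peak set 8767. In that setting 10 genes were marked in the EnPGC-1 peak set alone and 10 in the DMSO peak set alone, beside 15.4% and 16.5% of all genes. With each list held to intervals at or above its own median score, 17 genes were marked in the EnPGC-1 peak set alone and 7 in the DMSO peak set alone, beside 30.6% and 6.97% of all genes.

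**Figure D1:**
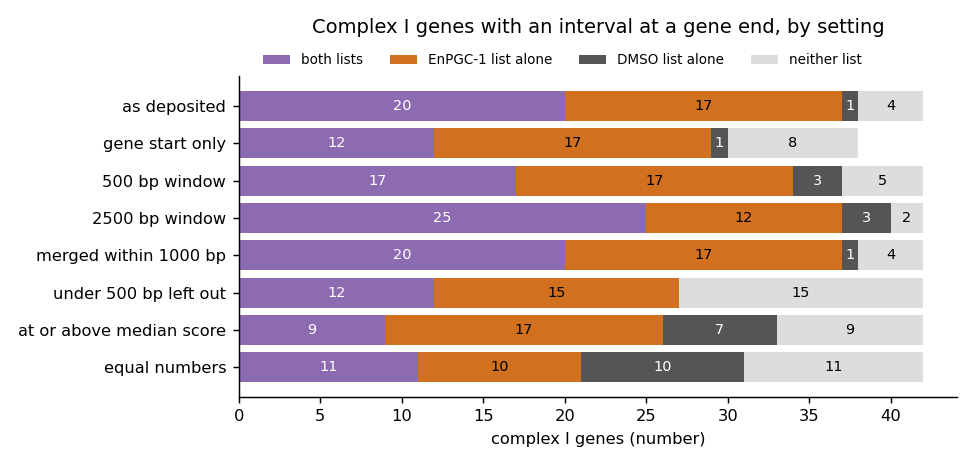
Number of complex I genes (x axis) with an interval in both lists, in 1 list alone or in neither, for the deposited lists and 7 other settings (y axis). The gene start setting has 38 genes and the others 42. The 17 genes of the EnPGC-1 peak set alone became 10 with equal numbers of intervals, when 10 were also marked in the DMSO peak set alone.

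The whole lists differed as well. The DMSO peak set held 81522 distinct intervals covering 41.3 Mb and the EnPGC-1 peak set 253423 covering 165 Mb, ratios of 3.11 and 4.00. The depth of the samples is unknown here, and depth and enrichment cannot be told apart from treatment. Of 13 T cell marker genes, the DMSO peak set marked 6 and the EnPGC-1 peak set 12 at a gene end, and Cd3d, a chain of the T cell receptor complex, had none in either. Genes of other lineages were marked as well: 2 and 7 of 8 B cell markers, 5 and 7 of 8 myeloid markers, and 2 and 6 of 6 erythroid and platelet markers. These counts stand beside 41.6% and 72.8% of all genes in the DMSO and EnPGC-1 peak sets. Summed over the list, covered bases within 5 kb were 5811 and 30351 for T cell markers, 5552 and 21289 for B cell markers, 5530 and 20172 for myeloid markers, and 3313 and 16844 for erythroid and platelet markers, in the DMSO and EnPGC-1 peak sets. The lists differ in length, and the medians per gene were 381 and 1837, 622.5 and 2319.5, 270.5 and 1881, and 389.5 and 2633.5 in the same order. Over all genes the medians were 366 and 1432. Whether cells of other lineages were present, and their part in the values at complex I genes, was not tested.

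Around gene starts, EnPGC-1 coverage of complex I genes was highest in the first 500 bases of the gene. This stretch was chosen after seeing the data. The strand, and with it the start, was known for 38 of the 42 genes, and none was given for Ndufs1, Ndufa2, Ndufb9 and Ndufaf6. In the first 500 bases of the gene, 56.6% of bases lay in an EnPGC-1 interval and 15.0% in a DMSO interval. Over the 17273 protein-coding genes with a known strand the values were 38.1% and 12.5%, and over 57 genes of complexes II to V they were 46.4% and 20.1%. By number, 27 complex I genes (71.1%, 54.1 to 84.6) had covered bases there in the EnPGC-1 peak set and 8 (21.1%, 9.55 to 37.3) in the DMSO peak set, beside 53.4% and 21.1% of all genes. The 27 genes were 7 covered in both lists and 20 in the EnPGC-1 peak set alone, 1 gene was covered in the DMSO peak set alone, and 10 in neither. This division was not counted over all genes, and the EnPGC-1 peak set was the longer list. In the DMSO peak set the complex I share with covered bases there was that of all genes, at 21.1%. With equal numbers of intervals the counts were 9 and 8 genes, beside 21.3% and 21.1% of all genes, so the excess in the first 500 bases lay in EnPGC-1 intervals whose scores were at or below 4.21, the lowest score kept. The median distance from the gene start to the nearest interval was 35 bases in the EnPGC-1 peak set and 3708 bases in the DMSO peak set. Over all genes it was 239 and 5293 bases. The start itself lay inside an EnPGC-1 interval at 17 complex I genes (44.7%) and inside a DMSO interval at 4 (10.5%). The shares were 34.5% and 11.9% of all genes, and 43.9% and 19.3% at complexes II to V.

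**Figure D2:**
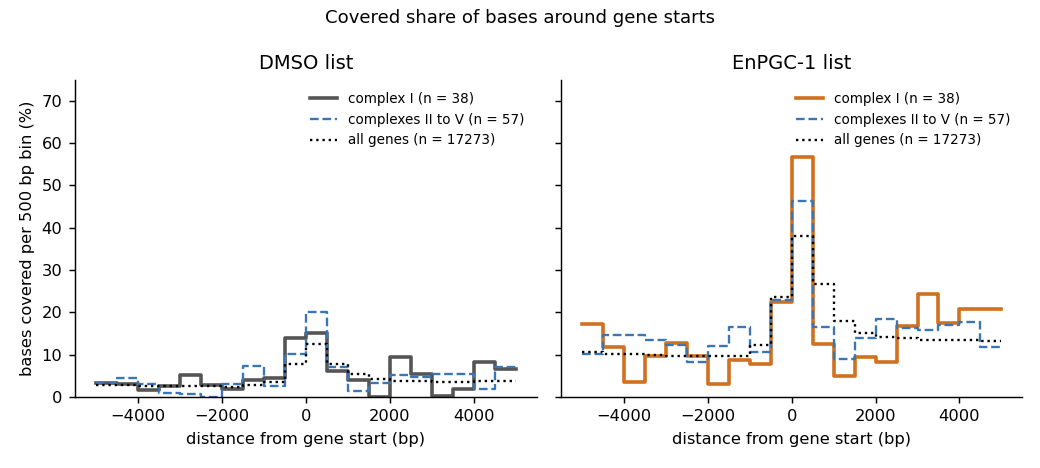
Share of bases covered by intervals (y axis, percent) in 500-base bins from 5 kb before to 5 kb after the gene start (x axis, in the direction of transcription), for complex I genes, complexes II to V and all genes. Complex I genes reach 56.6% in the first 500 bases in the EnPGC-1 peak set and 15.0% in the DMSO peak set. In the next 500 bases the EnPGC-1 value is 12.4%, beside 26.7% over all genes.

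**Figure D3:**
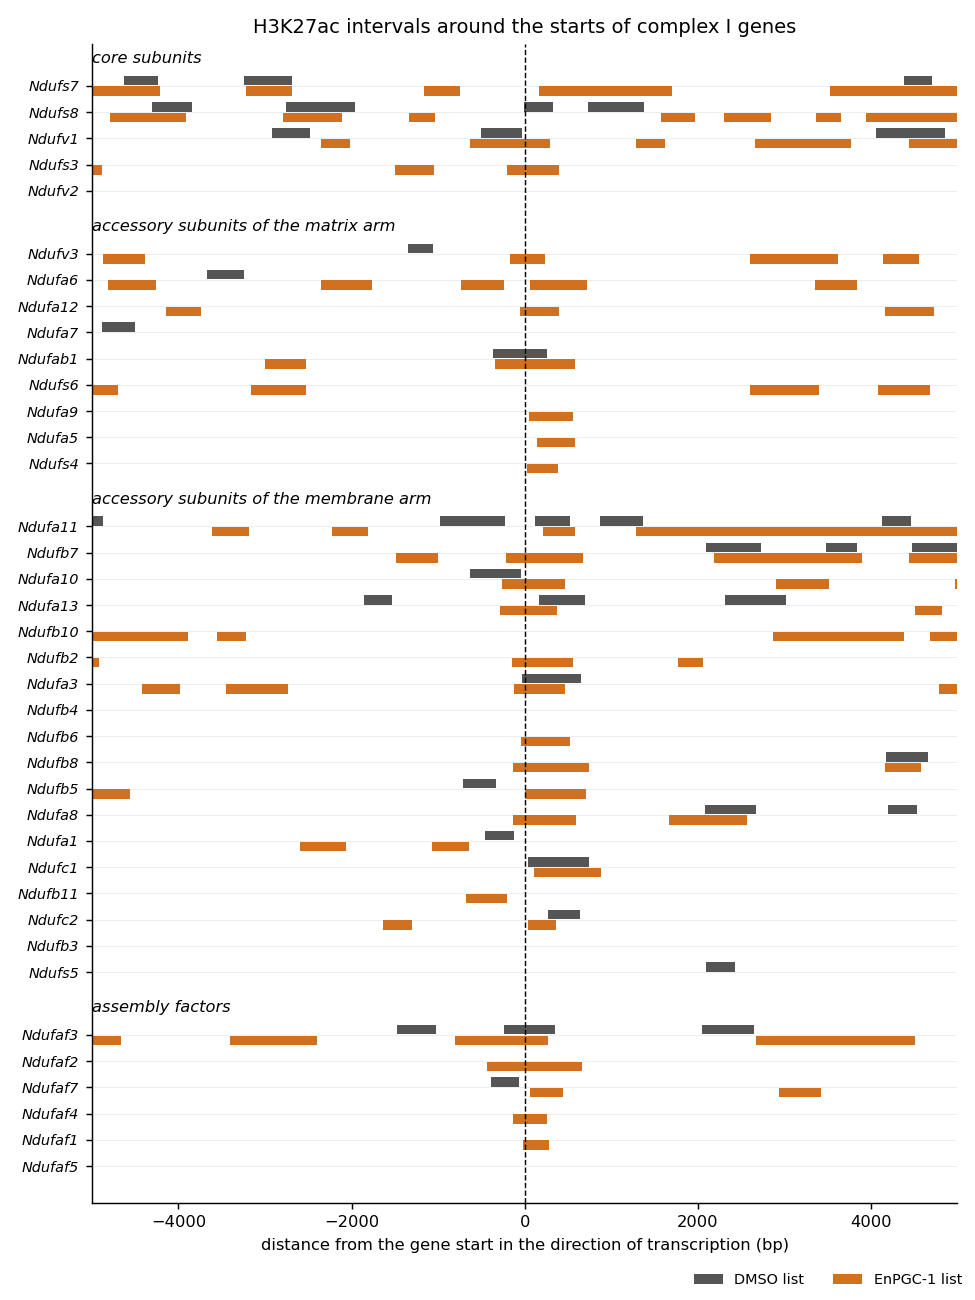
Each row is 1 of the 38 complex I genes with a known strand, and bars are intervals of the DMSO peak set (grey) and the EnPGC-1 peak set (orange) within 5 kb of the gene start (dashed line), in bp. EnPGC-1 bars stand at or next to the start in 29 rows within 1 kb, and DMSO bars in 13.

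Using the start alone moved several genes to another class. Within 1 kb of the start, 29 of 38 genes had an EnPGC-1 interval and 13 a DMSO interval, beside 64.6% and 30.4% of all genes with a strand. They were 12 genes in both lists, 17 in the EnPGC-1 peak set alone (37.3% of all genes), Ndufs8 in the DMSO peak set alone (3.16%) and 8 in neither. Ndufs6, the gene that the gene-end count gives to the DMSO peak set alone, had its DMSO interval at the 3' end, from 8671 to 9100 bases after the start, and had no interval of either list within 1 kb of the start. Ndufa7, Ndufb4 and Ndufb10 were marked in the EnPGC-1 peak set at the 3' end only. In the other direction, Ndufv3, Ndufb6 and Ndufb7, which both lists marked at some gene end, were marked at the start in the EnPGC-1 peak set alone.

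Promoter sequences are shown for the 2 genes marked in the EnPGC-1 peak set alone in all 8 settings, Ndufb2 and Ndufaf2, for Ndufa8, chosen among the EnPGC-1-alone starts because it holds NRF-1 letters, and for 4 of the 12 genes with starts marked in both lists. These 4 and Ndufa8 were picked as examples with their values known. Each is the part of the 250 bases before the start that lies outside every annotated gene, from RefSeq, GRCm38.p6, in lower case. Capitals mark letters of the motifs searched, on both strands, for 4 factors known at respiratory chain promoters: GCGCATG for NRF-1, CCGGAAG for NRF-2, AAGGTCA for the estrogen-related receptors and AAGATGG for YY1. A match is a run of letters and not a binding site.
Ndufb2, chr6:39592315-39592564 (+ strand): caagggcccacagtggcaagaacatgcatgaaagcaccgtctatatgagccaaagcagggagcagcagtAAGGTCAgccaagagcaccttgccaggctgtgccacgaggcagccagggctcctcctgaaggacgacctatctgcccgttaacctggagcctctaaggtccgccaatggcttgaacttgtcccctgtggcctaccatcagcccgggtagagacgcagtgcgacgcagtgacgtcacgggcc
Ndufaf2, chr13:108158653-108158710 (- strand): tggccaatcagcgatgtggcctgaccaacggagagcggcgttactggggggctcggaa
Ndufa8, chr2:36049339-36049472 (- strand): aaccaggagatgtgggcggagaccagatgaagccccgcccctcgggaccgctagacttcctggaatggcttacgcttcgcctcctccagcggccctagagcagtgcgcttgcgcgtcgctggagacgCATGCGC
Ndufv1, chr19:4012756-4013005 (- strand): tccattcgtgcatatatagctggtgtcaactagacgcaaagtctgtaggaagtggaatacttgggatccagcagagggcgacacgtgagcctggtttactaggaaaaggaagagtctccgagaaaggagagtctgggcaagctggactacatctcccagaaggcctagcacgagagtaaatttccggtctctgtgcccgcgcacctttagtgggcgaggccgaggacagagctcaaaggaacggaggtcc
Ndufab1, chr7:122101849-122102098 (- strand): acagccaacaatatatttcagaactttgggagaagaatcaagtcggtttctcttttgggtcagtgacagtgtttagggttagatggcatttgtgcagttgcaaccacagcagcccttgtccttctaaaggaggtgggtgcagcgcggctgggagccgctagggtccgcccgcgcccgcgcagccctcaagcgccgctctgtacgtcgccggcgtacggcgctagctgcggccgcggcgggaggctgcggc
Ndufa10, chr1:92473826-92474008 (- strand): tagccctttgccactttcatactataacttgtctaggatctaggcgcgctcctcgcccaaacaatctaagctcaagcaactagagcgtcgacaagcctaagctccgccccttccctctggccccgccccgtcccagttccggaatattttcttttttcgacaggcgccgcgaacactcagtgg
Ndufa11, chr17:56717700-56717761 (+ strand): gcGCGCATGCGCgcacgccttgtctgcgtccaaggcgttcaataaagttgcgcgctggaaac
The Ndufb2 stretch had 145 of its 250 bases in an EnPGC-1 interval and 0 in a DMSO interval, and the Ndufaf2 stretch had all 58 of its bases in an EnPGC-1 interval and 0 in a DMSO interval. At Ndufa8, 132 of 134 bases lay in an EnPGC-1 interval and 0 in a DMSO interval. At Ndufab1 all 250 bases lay in intervals of both lists. At Ndufv1 219 of 250 bases lay in a DMSO interval and 250 in an EnPGC-1 interval. At Ndufa10 138 of 183 lay in a DMSO interval and 183 in an EnPGC-1 interval. At Ndufa11 the 62 bases lay between intervals, with 0 covered in either list.

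Over the 38 complex I promoters of 300 bases, which also take in the first 50 bases of the gene, the NRF-1 letters were found in 7, those of NRF-2 in 5, of the estrogen-related receptors in 3 and of YY1 in 7. The shares of all 17273 promoters were 4.93%, 12.0%, 4.06% and 6.42%. At 57 promoters of complexes II to V the letters were found in 10, 22, 7 and 7, in the same order. Of the 7 genes with the NRF-1 letters, Ndufa6, Ndufa8, Ndufaf4, Ndufb6 and Ndufb8 were marked at the start in the EnPGC-1 peak set alone, Ndufa11 in both lists and Ndufaf5 in neither. With the NRF-2 letters, Ndufaf1, Ndufb6, Ndufb7 and Ndufs3 were in that EnPGC-1-alone class and Ndufs8 in the DMSO peak set alone. With those of the estrogen-related receptors, Ndufb2 was in the class and Ndufb4 and Ndufs5 in neither list. With those of YY1, Ndufa9, Ndufb8, Ndufs4 and Ndufs7 were in the class, Ndufa3 and Ndufc1 in both lists and Ndufs6 in neither. Of all 38 complex I starts, 17 were marked in the EnPGC-1 peak set alone, and a link between the letters and this class was not tested. A longer form of the NRF-1 motif, searched before the shorter one, asks for the letters on both strands overlapping at CATG. It was found in 3 complex I promoters (Ndufa11, Ndufaf4 and Ndufaf5) and in 1.34% of all promoters. The median number of CpG dinucleotides per promoter was 20.5 for complex I genes and 14 for all genes. It was 19 where the start was marked in the EnPGC-1 peak set alone, 22 where it was marked in both lists and 22.5 where it was marked in neither.

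Covered bases within 5 kb of a gene end were more numerous in the EnPGC-1 peak set at 37 complex I genes, in the DMSO peak set at 3 and equal at 2. Of all genes, 80% had more in the EnPGC-1 peak set and 5.29% in the DMSO peak set. They were counted at the gene end with more covered bases over both lists together. The median was 398.5 bases in the DMSO peak set and 1323 in the EnPGC-1 peak set for complex I genes, and 366 and 1432 for all genes. No base was covered at 14 complex I genes in the DMSO peak set (41.3% of all genes) and at 4 in the EnPGC-1 peak set (16.2%). The median difference was 794.5 bases, beside 995 for all genes and 1099.5 for complexes II to V. Summed over the 42 genes, covered bases were 3.33 times as numerous in the EnPGC-1 peak set, beside 3.39 times for all genes. With equal numbers of intervals the median difference was 58.5 bases (0 over all genes). In that setting 23 complex I genes had more in the EnPGC-1 peak set and 13 in the DMSO peak set, beside 49.2% and 25.1% of all genes.

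**Figure D4:**
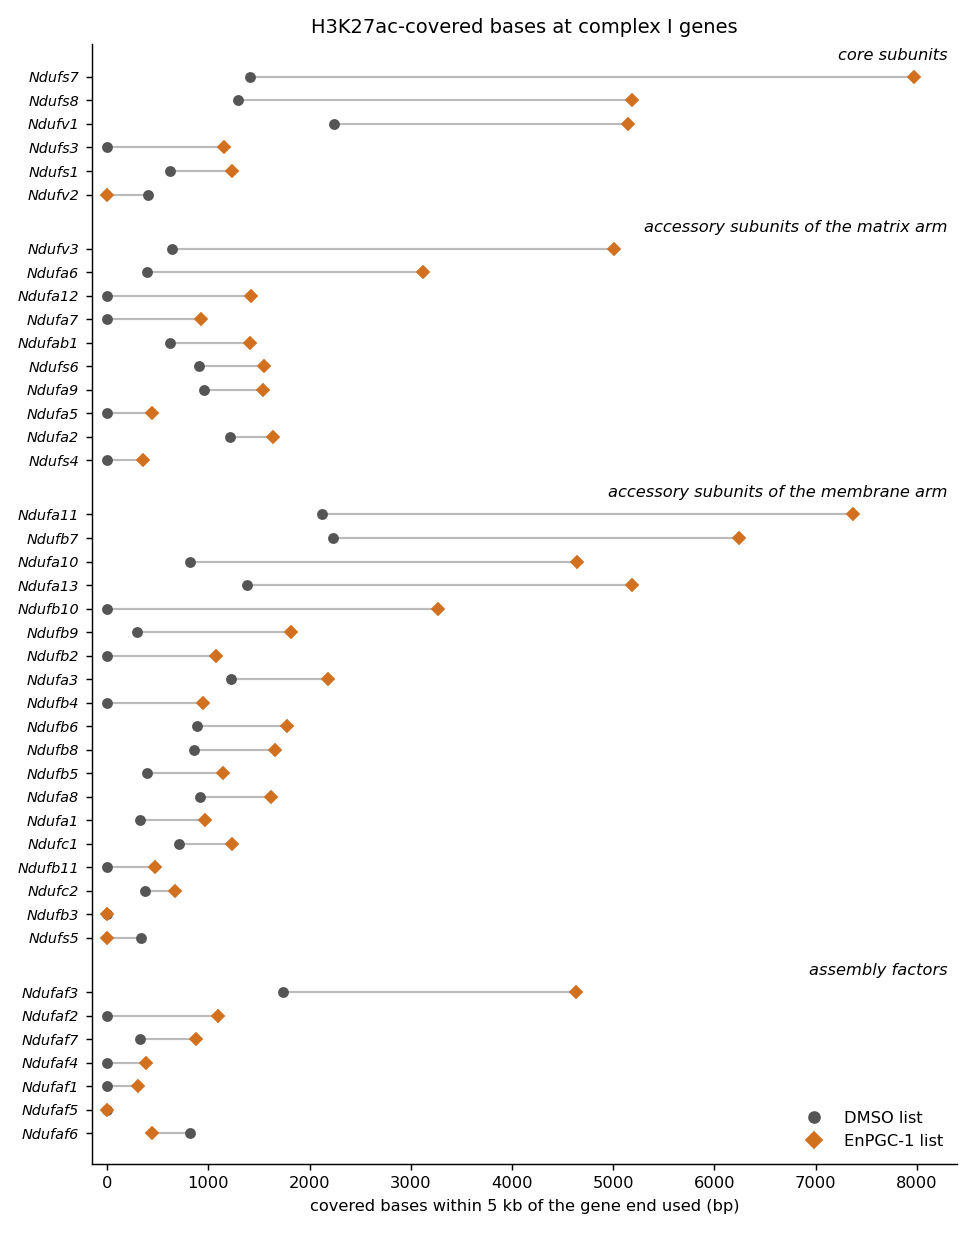
Bases covered by intervals within 5 kb of the gene end used (x axis, bp) for each of the 42 complex I genes (rows, by role), in the DMSO peak set (circles) and the EnPGC-1 peak set (diamonds). Ndufs7, with 1415 and 7968 bases, has the widest gap, and Ndufv2, Ndufs5 and Ndufaf6 are the rows in which the circle lies to the right.

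The 6 core subunits of the matrix arm carry the flavin and iron-sulfur clusters or line the quinone site. A gene-end interval was listed for 5 of them in the EnPGC-1 peak set and 3 in the DMSO peak set, beside 72.8% and 41.6% of all genes. Ndufs7, on chromosome 10 from 80249105 to 80256794, which encodes the subunit holding the last iron-sulfur cluster before ubiquinone, had 1415 covered bases in the DMSO peak set and 7968 in the EnPGC-1 peak set. A single EnPGC-1 interval of 4605 bases, from 80252636 to 80257240, ran over the later part of the gene and past its 3' end. That interval also lay at an end of Gamt. The difference was 6553 bases as deposited and 4358 with equal numbers of intervals. Ndufs8, which encodes another iron-sulfur subunit, had 1289 and 5181 bases. Its DMSO interval from 3912450 to 3912777 on chromosome 19 spanned the start, where no EnPGC-1 interval lay within 1 kb, and also lay at an end of Aldh3b1. With equal numbers the difference at Ndufs8 turned to -272 bases. Ndufv1, the gene of the NADH-binding flavoprotein, had 2240 and 5147 bases, and both lists held an interval at its start. Ndufv1 and Ndufs8 lie 94725 bases apart on chromosome 19 and share a neighbourhood.

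The other core genes had few covered bases. Ndufs3, of the quinone-binding module, had 0 in the DMSO peak set and 1153 in the EnPGC-1 peak set. An EnPGC-1 interval of 593 bases lay over the start, also at an end of Kbtbd4, and was lost with equal numbers of intervals. Ndufs1, the gene of the largest subunit, had 617 and 1238 bases, and both lists held an interval at the end near 63176822 on chromosome 1, which also lies at an end of the elongation factor gene Eef1b2. Ndufv2, the partner of Ndufv1 in the flavoprotein, had 399 and 0 bases, and its only EnPGC-1 interval lay inside the gene, from 7223 to 7615 bases after the start. In the EnPGC-1 peak set the core genes thus ranged from 7968 covered bases of a 10000-base window, at Ndufs7, to 0, at Ndufv2.

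Among the 10 accessory subunits of the matrix arm, 9 had a gene-end interval in the EnPGC-1 peak set and 4 in the DMSO peak set. The shares of all genes were 72.8% and 41.6%. In all 10 the EnPGC-1 peak set covered the larger number of bases, beside 80% of all genes. Ndufv3, a small subunit of the flavoprotein, had 645 covered bases in the DMSO peak set and 5009 in the EnPGC-1 peak set. Ndufa6, a LYR-motif protein that binds the acyl carrier subunit, had 398 and 3124. Ndufa12 had 0 and 1420, and its nearest DMSO interval was 77907 bases from the start, whereas EnPGC-1 intervals lay over the start, from 56 bases before it to 394 after it, and at 6 more places in the gene. The smallest differences were at Ndufs4, known from mitochondrial disease, with 0 and 359 bases, and at Ndufa2, with 1217 and 1638.

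Short intervals next to the start made up what was listed at several of these genes. At Ndufs4, on chromosome 13 from 114287795 to 114388094, the EnPGC-1 peak set held an interval of 359 bases from 28 to 387 bases after the start, and it stood at percentile 79.5 of that list's scores. At Ndufa5, with 0 and 443 covered bases, the EnPGC-1 interval ran from 138 to 581 bases after the start and stood at percentile 83.5. It also lay at an end of Asb15. At Ndufa9 an interval of 511 bases began 47 bases after the start, and the gene's other EnPGC-1 intervals lay in its body. With equal numbers of intervals, Ndufa5, Ndufa12 and Ndufs4 kept the interval at the start, and Ndufa9 lost it. Ndufa6 lost both intervals at its start, with scores of 1.97 and 3.63, and was still marked through an interval at its 3' end with a score of 4.75. Ndufa7 had 0 covered bases in the DMSO peak set and 927 in the EnPGC-1 peak set, from intervals at its 3' end that were lost with equal numbers. Within 5 kb of its start the order was reversed, with 373 bases in the DMSO peak set and 0 in the EnPGC-1 peak set. With equal numbers the difference at this gene was -373 bases. Ndufab1, the gene of the mitochondrial acyl carrier protein, had 620 and 1408 bases around a start that both lists covered, and Ndufs6 had 904 and 1551.

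Of the 19 accessory subunits of the membrane arm, 17 had a gene-end interval in the EnPGC-1 peak set and 11 in the DMSO peak set. The shares of all genes were 72.8% and 41.6%. Ndufa11, on chromosome 17 from 56717762 to 56724248, had 2127 covered bases in the DMSO peak set and 7371 in the EnPGC-1 peak set. An EnPGC-1 interval of 4937 bases, from 56719050 to 56723986, took in most of the gene, and the DMSO peak set held 4 intervals of 407 to 849 bases at its gene ends. Ndufb7 had 2233 and 6242 bases. Ndufa10, which encodes a subunit related to nucleoside kinases, had 820 and 4638 bases. Its start held the highest-scoring of the 184 EnPGC-1 intervals at complex I genes, from 92473359 to 92474083 on chromosome 1 with a score of 12.4, at percentile 99.9 of its list. A DMSO interval at the same start, from 92473871 to 92474460, stood at percentile 93.2 of the DMSO peak set.

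Other membrane arm genes lacked the mark in 1 or both lists. Ndufb3 had 0 covered bases in both lists, and its nearest intervals were 19773 bases (DMSO) and 19681 bases (EnPGC-1) from the start. Ndufs5 had 334 and 0 bases, from a DMSO interval 2092 to 2426 bases after the start. Ndufb2, Ndufb4, Ndufb10 and Ndufb11 had 0 bases in the DMSO peak set and 1072, 948, 3265 and 475 in the EnPGC-1 peak set. Of these, Ndufb2 held an interval over the start, from 145 bases before it to 553 after it, with a score of 4.51. Ndufb4 held its intervals beyond the 3' end. Ndufb10 held an interval of 1505 bases beyond the 3' end, which also lay at an end of the ribosomal protein gene Rps2, and others further off, among them 329 and 1154 bases upstream of the start, at -3550 to -3221 and -5042 to -3888 bases from it. The remaining 10 genes of this group had 292 to 1379 covered bases in the DMSO peak set and 670 to 5186 in the EnPGC-1 peak set.

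The 7 assembly factor genes had the fewest covered bases, with medians of 0 in the DMSO peak set and 446 in the EnPGC-1 peak set. A gene-end interval was listed for 3 of them in the DMSO peak set and for 6 in the EnPGC-1 peak set, beside 41.6% and 72.8% of all genes. Ndufaf3, whose product acts early in building the quinone module, had 1733 and 4629 bases and was marked in both lists in all 8 settings. Its start interval also lay at an end of Dalrd3. Ndufaf2, a relative of the subunit Ndufa12, had 0 and 1094 bases, all from an EnPGC-1 interval that ran from 436 bases before the start to 658 after it, at percentile 80.3. That interval also lay at an end of Ercc8, so the 2 genes cannot be told apart by it. Ndufaf7, an arginine methyltransferase gene, had 325 and 874 bases. Ndufaf4 and Ndufaf1 had 0 bases in the DMSO peak set and 388 and 307 in the EnPGC-1 peak set. Ndufaf5, which encodes an enzyme that modifies Ndufs7, had 0 in both lists. Ndufaf6 had 822 in the DMSO peak set and 446 in the EnPGC-1 peak set.

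Over gene bodies, an interval was listed for 24 of the 42 genes in the DMSO peak set and for 35 in the EnPGC-1 peak set, beside 61.6% and 81.9% of all genes. With equal numbers of intervals the counts were 24 and 23, beside 61.6% and 61.7% of all genes, and the median difference in the share of the body covered was 0. Complex I genes are short, with a median length of 8097 bases beside 17330 for all genes. The median share of the body covered was 1.19% in the DMSO peak set and 7.09% in the EnPGC-1 peak set, and 1.28% and 9.40% over all genes. The most covered bodies in the EnPGC-1 peak set were those of Ndufa11 at 81.8% (32.3% in the DMSO peak set), Ndufs7 at 74.1% (10.5%) and Ndufb7 at 57.9% (28.5%). Ndufa10 held 13 EnPGC-1 intervals and 1 DMSO interval in a body of 34340 bases. When the first and last 1 kb were left out, 23 of the 41 remaining bodies held an EnPGC-1 interval and 18 a DMSO interval, beside 81% and 58.4% of all genes.

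Genes in heavily covered surroundings were themselves heavily covered. With 100 kb on each side, the covered share of the region ran from 0.308% to 12.6% in the DMSO peak set and from 1.61% to 50.1% in the EnPGC-1 peak set. The medians were 2.17% and 9.82%, beside 2.04% and 8.54% for all genes. The highest values in both lists were at Ndufs7. Across the 42 genes, the EnPGC-1 covered share of the region and the covered bases within 5 kb had a Spearman rho of 0.83, given as a description, since the larger window contains the smaller. The 2 lists' covered bases within 5 kb had a rho of 0.73, beside 0.70 over all genes. Of the 38 genes with a gene-end interval in some list, 11 had only intervals that also lay within 1 kb of an end of another protein-coding gene, and 17 had none of that kind. These counts were not made over all genes, and the neighbours are named above for some genes only.

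The overlap of the peak sets was also counted interval by interval. Within 5 kb of the gene ends or in the body, the DMSO peak set held 80 intervals and the EnPGC-1 peak set 184. Among DMSO intervals, 49 shared 1 base or more with the EnPGC-1 peak set (61.3%, 49.7 to 71.9), beside 75.8% (75.5 to 76.2) at all genes and 81.4% (73.0 to 88.1) at complexes II to V. Among EnPGC-1 intervals, 47 did so with the DMSO peak set (25.5%), beside 25.9% at all genes. The difference between these shares was not tested, and with intervals under 500 bases left out the DMSO share at complex I genes was 80.6%. That share was 33.8% with equal numbers of intervals and 40.8% with each list at or above its median score. The share at all genes was counted only for the lists as deposited, so these values have no such share beside them. Median widths at complex I genes were 447.5 bases in the DMSO peak set and 540 in the EnPGC-1 peak set, beside 431 and 499 over the whole lists. The intervals had middling scores, at median percentiles of 49.9 in the DMSO peak set and 49.7 in the EnPGC-1 peak set.

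Among complex I genes outside the 42, Acad9, Dmac1, Foxred1, Timmdc1 and Tmem186 were marked at a gene end in the EnPGC-1 peak set alone. Dmac2, Ecsit, Ndufaf8 and Tmem126b were marked in both lists. Tmem70 was marked in the DMSO peak set alone, and Nubpl, which encodes an iron-sulfur carrier for complex I, in neither. Of all genes, 33.4% were marked in the EnPGC-1 peak set alone, 39.4% in both lists, 2.19% in the DMSO peak set alone and 25% in neither. Of 68 genes of complexes II to V, 29 were marked in the DMSO peak set (42.6%, 30.7 to 55.2) and 52 in the EnPGC-1 peak set (76.5%, 64.6 to 85.9). These counting intervals overlap those of complex I genes in each list. Of the 39 genes of complexes II to V that the DMSO peak set left unmarked, 26 were marked in the EnPGC-1 peak set (66.7%, 49.8 to 80.9).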

How the data were processed

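H3K27ac ChIP, IgG and input DNA were sequenced, and samples were grouped by treatment and antibody from the labels. The build was mm10, and MACS2 2.2.2.20160309 is among the tools named, per the submitters' processing notes, which also list ChIPseeker 11.16.1, Bowtie 1.1.2, Trimmomatic 0.38 and Picard 0.118. Settings, the control used and any pooling of replicates were not given in the sources used here, nor was whether replicates came from separate animals. The deposited score per interval was read as -log10 of a q-value, an inference from the lowest scores of 1.31, beside 1.30 for a q of 0.05, and served only to rank intervals within a list. Entries repeating an interval were combined, which turned 84538 DMSO and 329623 EnPGC-1 entries into 81522 and 253423. Gene coordinates, strands and promoter sequences came from RefSeq (GRCm38.p6), and coordinates are 1-based. Genes on the Y chromosome were left out, since neither list has intervals there. An interval was counted with 1 base of overlap.

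Intervals of binomial shares are Clopper-Pearson at 95% (SciPy 1.17.1). Counts were tested on simulated data, with 0 of 2000 windows differing from a base-by-base count. Members, gene lists and alternatives were chosen with earlier results of these data known, and the first-500-base count, motifs and regional windows were chosen after seeing the data. Named with full values were the core subunits, the 3 largest and 2 lowest differences per role, genes at 0 in some list and those in the DMSO peak set alone. Any other gene was named once its values were known. Of the lists, Coa1 had no match and Atp5f1 was matched by synonym. Input and IgG samples were not analysed here, and a further complex I gene is not reported here.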

Additional observations from a re-analysis of the deposited data

How the results depend on the processing

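No paired analysis was possible because each treatment has 1 deposited list, and for the same reason no replicate could be left out. Over 12 results and 72 alternatives, 45 values stayed within 1.5 times (for the overlap share, within its counting interval) and 27 moved further. The cause of these moves was not tested, apart from what each alternative removes. With equal numbers of intervals, 21 genes were marked at a gene end in the EnPGC-1 peak set, 10 in it alone and 10 in the DMSO peak set alone. Over all genes the counts were 8767, 3341 and 3570 of 21627. In that setting the EnPGC-1 peak set covered more bases at 23 genes, with a median difference of 58.5 bases, and 23 had an EnPGC-1 interval in the body with a median difference of 0 percentage points, 9 had EnPGC-1 bases in the first 500, and 33.8% of DMSO intervals overlapped an EnPGC-1 interval. With each list at or above its median score, 7 genes were in the DMSO peak set alone (1508 of 21627 over all genes). In the body, 15 had a DMSO interval (10949 of 21627). Bases in the first 500 were covered at 4 (DMSO) and 13 (EnPGC-1), beside 13.3% and 30.2% of all genes. The overlap share was 40.8%. Without intervals under 500 bases, 12 genes were marked in the DMSO peak set and 0 in it alone (4918 and 533 of 21627 over all genes). A DMSO interval in the body was left at 13 (8756 of 21627), and DMSO bases in the first 500 at 5 (10.7% of all genes). The median body difference was 1.90 percentage points (3.90 over all genes) and the overlap share 80.6%. No overlap share at all genes was counted in any alternative. Windows of 500 and 2500 bases gave 3 and 3 genes in the DMSO peak set alone (614 and 338 of 21627 over all genes). The gene start alone gave 13 marked in the DMSO peak set, beside 30.4% of all genes with a strand. The median difference in covered bases was 1895 within 10 kb and 1465 over both ends joined, beside 1714 and 1342 for all genes. Without the first and last 1 kb of the body, 23 genes had an EnPGC-1 interval and the median difference was 0. Over all genes the values were 81% and 5.70 percentage points. The sequencing depth is unknown here, so differences in list length cannot be told apart from differences in acetylation.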

Other observations

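Among the later complexes, complex II, the succinate dehydrogenase, differed by 1 gene: 3 of 8 genes were marked in the DMSO peak set and 4 in the EnPGC-1 peak set, and Sdha, Sdhaf1, Sdhaf3 and Sdhaf4 were marked in neither. At complex III, 6 and 12 of 15 genes were marked, at complex IV 11 and 22 of 27, and at complex V 9 and 14 of 18. The shares of all genes were 41.6% and 72.8%. Cox7c, Ndufa4 (counted here with complex IV) and Atpaf1 were marked in the DMSO peak set alone. These genes were chosen with their values known, and the differences between complexes were not tested.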
